A study of Homo sapiens with 59 samples.

Results

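The enzymes described here connect glutamine, glutamate, proline, aspartate, alanine and phosphoenolpyruvate, and they were chosen by name, with earlier results of these data known. Counts of called members set beside all-gene shares are therefore descriptive. The enzymes are GLUD1, GLUL, ALDH18A1, PYCR1, GOT1, GOT2, GPT2 and PCK2. These are 8 of the 24174 genes that had a value in each of the 7 deposited tables, and all 8 passed the filter on low values in every table. The samples were 59 RNA-seq libraries of the established human line Jurkat, a T cell leukaemia, collected at day 3 of culture. The 7 restricted groups had a single essential amino acid labelled as 25%, namely histidine, methionine, phenylalanine, tryptophan, isoleucine, leucine or valine, with 5 libraries each. The 5 control groups comprised 5 libraries for each of tryptophan, phenylalanine, methionine and histidine, and a branched-chain (BCAA) control of 4 libraries, numbered 1, 3, 4 and 5, that served isoleucine, leucine and valine together. No other agent or allele is named in the labels, and the sources used here do not give the amount that 25% refers to. Each comparison asked how restricted cells differed from the control cells of the same table. The labels do not state whether replicate libraries derive from separate cultures. The p-values accordingly reflect the spread among libraries, and that spread may be technical.

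Glutamine gives nitrogen to nucleotides and asparagine and is turned into glutamate, which sits at the centre of non-essential amino acid synthesis. Glutamate is made into proline by way of pyrroline-5-carboxylate, and it gives its amino group to oxaloacetate and pyruvate to form aspartate and alanine, leaving 2-oxoglutarate for the tricarboxylic acid (TCA) cycle. Proliferating lymphoid cells draw on these routes for protein, nucleotides and redox balance, and several of the enzymes are known targets of ATF4, the transcription factor translated when amino acids are scarce.

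Promoter sequence was available for 6 of the 8 genes from RefSeq (GRCh38.p14), and PYCR1 and GPT2 were not matched. The 250 bases before each transcript start were searched on both strands for TGATGNAA, the composite element bound by ATF4 with a C/EBP partner, and for TGACGT, the core letters of CREB and ATF binding sites. The TGACGT search was added after the promoters had been read, and the 2 searches share no letters in the matches printed here. TGATGNAA occurred in 3.14% and TGACGT in 7.1% of 35116 such windows of all genes. Because TGACGT was picked after reading these promoters, its share is no test of its matches here. Any link between the matched letters and the mRNA patterns was not tested. ALDH18A1 and GOT2 are printed because their mRNAs moved together (both fell most under tryptophan restriction), and GOT1 because it held the only TGATGNAA match of the 6. Sequences run 5′ to 3′ along the gene, and capitals mark the matches.
ALDH18A1, chr10:95656712-95656961, minus strand: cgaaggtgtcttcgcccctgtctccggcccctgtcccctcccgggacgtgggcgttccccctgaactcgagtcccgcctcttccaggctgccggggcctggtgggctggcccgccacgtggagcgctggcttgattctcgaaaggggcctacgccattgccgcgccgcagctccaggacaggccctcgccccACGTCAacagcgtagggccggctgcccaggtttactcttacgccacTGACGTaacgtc
GOT2, chr16:58734358-58734566, minus strand: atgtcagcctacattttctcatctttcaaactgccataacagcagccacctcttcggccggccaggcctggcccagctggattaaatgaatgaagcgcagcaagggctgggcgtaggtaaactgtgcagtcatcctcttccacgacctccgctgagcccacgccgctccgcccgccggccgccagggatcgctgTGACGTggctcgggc
GOT1, chr10:99430804-99430833, minus strand: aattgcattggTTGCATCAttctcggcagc
In ALDH18A1 the matches began 58 and 12 bases before the start, in GOT2 56 bases before it and in GOT1 198 bases before it, which lies inside an annotated exon (GENCODE 29). The windows of GLUD1, GLUL and PCK2 held neither set of letters. Annotated exons covered all 250 bases of both GLUL windows and of the GOT1 window, and 246 bases of the PCK2 window. For GLUL, GOT1 and PCK2 the sequence upstream of the annotated gene start was therefore not searched. A match is a description of the sequence and does not show binding.

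Library totals ranged from 14.9 to 20.5 M normalised counts, and each table was scaled on its own, so levels from different tables are set side by side only as separately normalised values. Equal library totals, tried as another scaling, shifted the all-gene median log2 fold change by 0.25 (tryptophan), 0.13 (methionine), 0.12 (phenylalanine) and 0.11 (valine), and by no more than 0.052 in the other tables. They also raised the share of called genes that were higher to 62.6% instead of 52.2% for methionine, to 67.0% instead of 40.3% for phenylalanine, to 70.9% instead of 45.9% for tryptophan and to 63.7% instead of 41.1% for valine. T cell markers were present: 12 of 13 had a median of at least 100 normalised counts (CD28 had 30.5). Histidine control 3 and phenylalanine control 1 stood apart in epithelial and fibroblast markers, which summed to 7139 and 3161 normalised counts against group medians of 435 and 455, and they also correlated least with their groups (median r 0.92 and 0.87). The call of no enzyme changed when either of these 2 was left out alone. BCAA control 1 had the highest PYCR1, GOT1, GOT2, GPT2 and PCK2 of the 4 BCAA controls. Its T cell markers summed to 83251 normalised counts in the isoleucine table (group median 54845), and those of phenylalanine-restricted library 2 to 76649 (group median 57224). Phenylalanine control 1 had 2168 normalised counts of 5.8S rRNA, against 211 to 304 in the other 4 controls, and valine-restricted library 5 had an epithelial and fibroblast sum of 1335 (group median 353). The part of these differences in the results was not tested beyond leaving libraries out. In bulk RNA fewer cells of a state and less RNA per cell cannot be told apart. GLUD1, PYCR1, GOT1, GOT2 and PCK2 overlap genes on the opposite strand (SHLD2 for GLUD1 and NRL for PCK2, for example), and their values are uncertain to that extent because it is not stated whether the counting used strand. Near-identical copies had few counts of their own: the medians were 30.7 for GLUD1P3, 7.59 for GLUD1P2, 1.00 for GLUD2, 1.99 for GLULP4 and 0.894 for GOT2P3.

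The 8 mRNAs did not respond as a block. Methionine restriction lowered all 8 of them, whereas tryptophan and histidine restriction raised GPT2 and PCK2 and lowered other members. Valine, leucine and phenylalanine restriction lowered PYCR1 and PCK2, and under isoleucine restriction no member was called. A gene was called at a Benjamini-Hochberg (BH) adjusted p below 0.05 in limma, adjusted over all genes of the table, and fold changes are on the scale log2(normalised count + 1). Under histidine restriction 5 members were called, where 27.9% of all tested genes were called. Of these 2 were higher (15.6% of all genes) and 3 lower (12.3%). Methionine restriction changed all 8, beside 53.2% of all genes, and all were lower, as were 25.4% of all genes; with equal library totals it was 7, GOT1 not being called. Phenylalanine restriction changed 2, beside 10.2%, both lower (6.09% of all genes). With restricted library 2 and control library 1 left out, 4 members were called, all lower, beside 26.5% of all genes called (14.2% lower). Tryptophan restriction changed 4, beside 51.3%, with 2 higher (23.6% of all genes) and 2 lower (27.7%), all counts near the all-gene shares. With equal library totals it changed 8, of which 6 were higher and 2 lower, beside 58% of all genes called (41.2% higher and 16.9% lower). For leucine 3 were called, beside 7.75%, all lower (4.33% of all genes), and for valine 4, beside 12.5%, all lower (7.36%). Without BCAA control 1 the members called were again 3 for leucine and 4 for valine, beside 10.1% and 15.8% of all genes. Without restricted library 2 as well, leucine gave 4 members (GLUD1 higher, 3 lower) beside 14.4% of all genes and valine 4 beside 25%. The all-gene share moved by over 1.5 times when single libraries were left out: it was as low as 3.1% for leucine (2 members, without restricted library 3 or 4), 6.62% for valine (3 members, without BCAA control 5) and 6.47% for phenylalanine (2 members, without restricted library 4). For leucine the same held without restricted library 1 or 5 or BCAA control 3 or 5, for valine without restricted library 1, 3 or 5, and for phenylalanine without restricted library 1. Isoleucine restriction gave 0 calls among the members and 0% of all 16623 genes in limma. At an unadjusted p below 0.05 it gave 872 genes (5.25%) and 0 members, and the smallest adjusted p was 0.0582 over all genes and 0.799 among the members. With a minimum mean of 100, which all 8 members passed, the same numbers of members were called. The shares of genes called were then larger, except for isoleucine. They were 39.3% for histidine, 64.6% for methionine, 15.7% for phenylalanine, 12.9% for leucine and 17.8% for valine. For tryptophan the share was 62.7% (22.6% higher and 40.1% lower). The median log2 fold change of the 8 was -0.85 under methionine restriction, where that of all genes was 0.019. In the other comparisons the members' median lay between -0.42 (valine) and -0.013 (isoleucine), with medians of all genes between -0.0071 and 0.034. Restricted and control libraries did not overlap for 4 members under histidine restriction (20.2% of all genes), 7 under methionine (39.9%), 5 under phenylalanine (11.7%), 4 under tryptophan (37.5%), 0 under isoleucine (2%), 4 under leucine (13.1%) and 5 under valine (15.4%). By gene, PCK2 was called in 6 of the 7 comparisons, GPT2 and PYCR1 in 4, ALDH18A1, GOT1 and GOT2 in 3, GLUL in 2 and GLUD1 in 1.

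**Figure D1:**
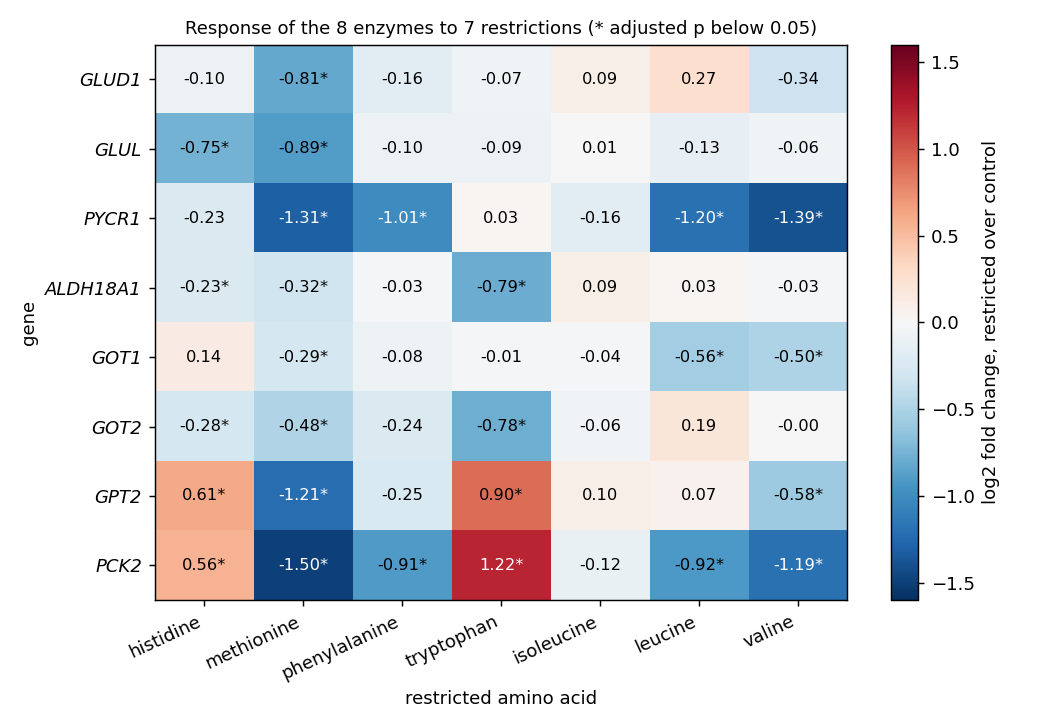
Heat map of the limma log2 fold change, restricted over control, for the 8 enzymes (down the page) and the 7 restricted amino acids (across), with an asterisk where the adjusted p over all genes of the table was below 0.05. The methionine column is negative throughout, PCK2 spans -1.50 (methionine) to 1.22 (tryptophan), and the isoleucine column holds no asterisk.

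GLUD1 encodes the mitochondrial glutamate dehydrogenase that releases ammonia from glutamate to give 2-oxoglutarate (ENSG00000148672.8, chromosome 10, 87050486 to 87094866, minus strand, GRCh38). As deposited it was called under methionine restriction alone. Its level there was 2638, 2625, 2678, 2615 and 2884 normalised counts in the restricted libraries, against 4670.0, 5090.1, 4917, 4492 and 4478 in the control libraries. All 5 restricted libraries lay far below the lowest control, and the level was 56.9% of control (limma log2 fold change -0.81, SE 0.060, BH-adjusted p = 8.59e-08). In the other comparisons its log2 fold change ran from -0.34 (valine, 95% interval -0.65 to -0.027) to 0.27 (leucine, interval 0.067 to 0.47), with no call. The leucine value became a call (0.31, limma BH-adjusted p = 0.028) when restricted library 2 and BCAA control 1 were left out. Under tryptophan restriction it was -0.070 and became higher with equal totals (0.18, limma BH-adjusted p = 0.0136).

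GLUL encodes glutamine synthetase, which joins ammonia to glutamate (ENSG00000135821.18, chromosome 1, 182381704 to 182392206, minus strand). It fell under histidine and methionine restriction. In the histidine table GLUL had 3516, 3164, 3584, 4069 and 3669.9 normalised counts in the restricted libraries, against 5695, 6096, 5869, 6292 and 6272 in the control libraries. The highest restricted library remained well under the lowest control (limma log2 fold change -0.75, SE 0.069, BH-adjusted p = 4.69e-06). In the methionine table GLUL had 2940.2, 3265, 3183, 3288 and 3619 normalised counts in the restricted libraries, against 5198, 6554, 6567, 5779.9 and 6218 in the control libraries. The groups again did not overlap (limma log2 fold change -0.89, SE 0.078, BH-adjusted p = 4.21e-07), and the level was 53.8% of control. In the other 5 comparisons its log2 fold change lay between -0.13 (leucine, 95% interval -0.30 to 0.044) and 0.011 (isoleucine, interval -0.16 to 0.18), with no call. Of these only the tryptophan value changed its call under another scaling: it was -0.088 as deposited and 0.16 with equal totals (limma BH-adjusted p = 0.0166). The pair split under histidine restriction, where GLUL fell and GLUD1 was not called (log2 fold change -0.095, 95% interval -0.24 to 0.053).

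**Figure D2:**
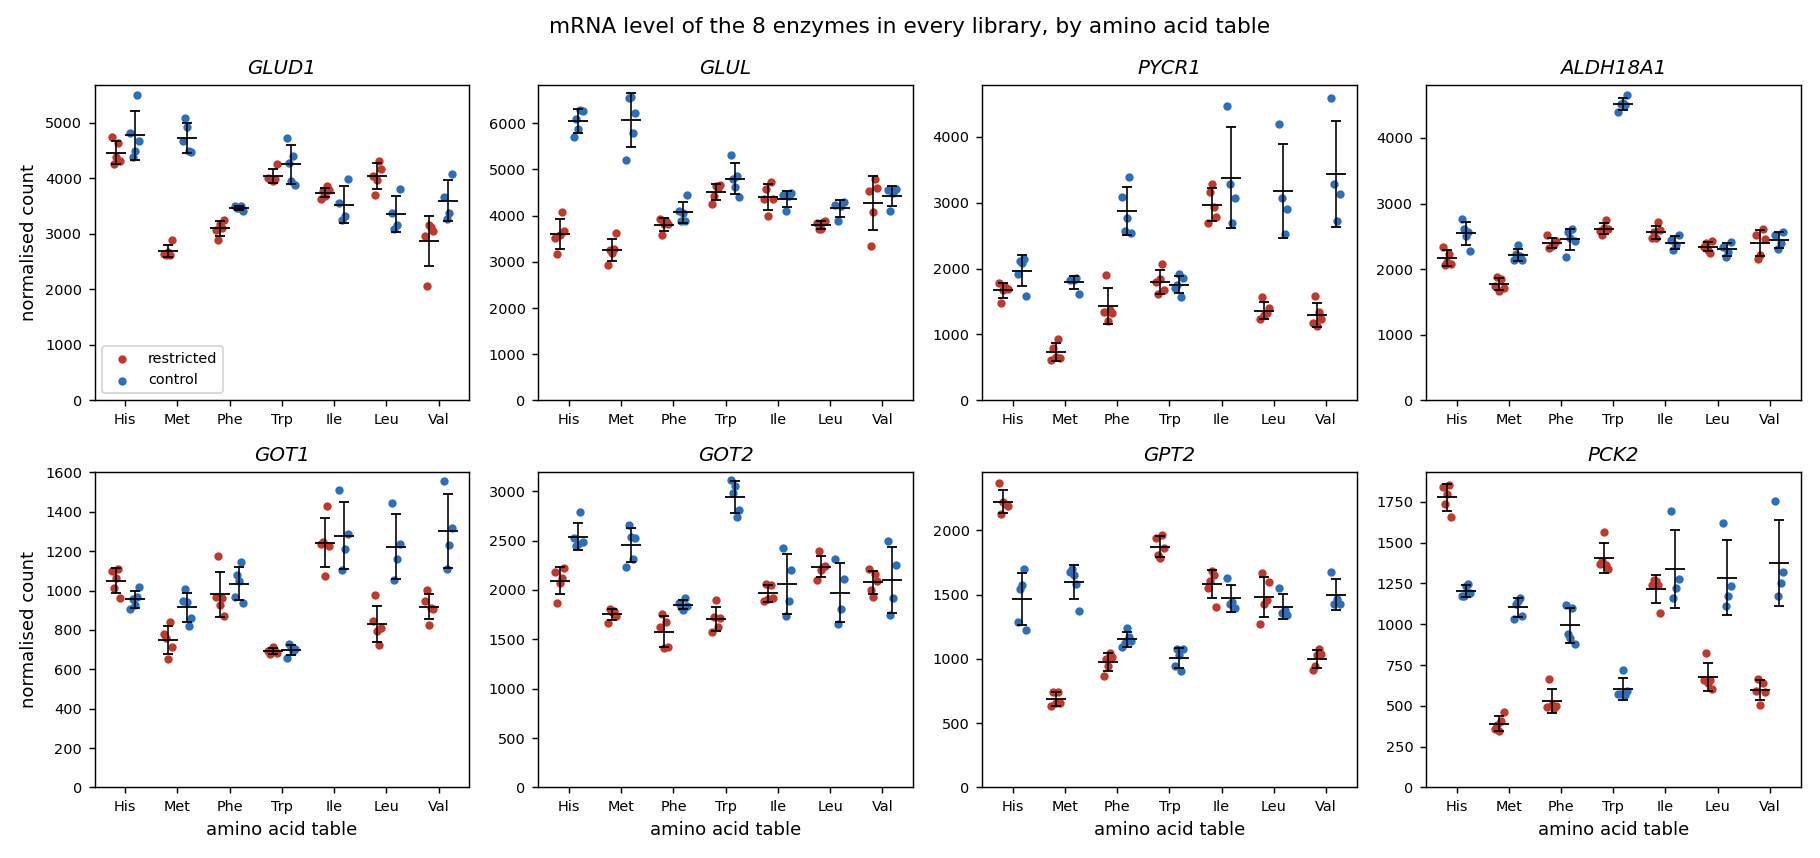
Normalised count of each enzyme in every library (linear axes from 0), with restricted libraries in red to the left of control libraries in blue for each amino acid, bars marking the mean ± SD (n = 5, and 4 for the BCAA controls under Ile, Leu and Val). GLUL separates under His and Met, ALDH18A1 and GOT2 controls are highest in the Trp table, and PCK2 lies above control under His and Trp and below it under Met, Phe, Leu and Val.

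Proline synthesis starts with ALDH18A1, the pyrroline-5-carboxylate synthase of mitochondria (ENSG00000059573.8, chromosome 10, 95605929 to 95656706, minus strand). It fell most under tryptophan restriction. There ALDH18A1 had 2589, 2519, 2621, 2749 and 2606 normalised counts in the restricted libraries, against 4402, 4519, 4533, 4499 and 4659 in the control libraries. The restricted and control libraries formed separate, narrow ranges, and the restricted level was 57.9% of control (limma log2 fold change -0.79, SE 0.047, BH-adjusted p = 7.35e-09). Methionine-restricted cells followed, with 1747, 1877, 1663, 1855 and 1718 normalised counts in the restricted libraries, against 2139, 2238, 2375, 2198 and 2144 in the control libraries, again without overlap (limma log2 fold change -0.32, SE 0.062, BH-adjusted p = 0.000521). In the histidine table it had 2339, 2057, 2115, 2239 and 2072 normalised counts in the restricted libraries, against 2762, 2619.5, 2510.0, 2572 and 2279.7 in the control libraries. Here the ranges overlapped through restricted library 1 and control 5 (limma log2 fold change -0.23, SE 0.067, BH-adjusted p = 0.0186), and the call was lost with trimmed-mean (TMM) scaling (adjusted p = 0.0594 in limma). Under phenylalanine, isoleucine, leucine and valine restriction its log2 fold change lay between -0.035 and 0.092, with 95% intervals inside -0.27 to 0.26.

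PYCR1, the mitochondrial reductase that completes proline synthesis (ENSG00000183010.16, chromosome 17, 81932384 to 81942412, minus strand), followed another pattern and fell under methionine, phenylalanine, leucine and valine restriction. In the methionine table PYCR1 had 616, 800.0, 661, 932 and 650.3 normalised counts in the restricted libraries, against 1824, 1848, 1826, 1854 and 1614 in the control libraries. Every restricted library was below every control (limma log2 fold change -1.31, SE 0.11, BH-adjusted p = 2.06e-07). In the phenylalanine table PYCR1 had 1342, 1904, 1211, 1376 and 1332 normalised counts in the restricted libraries, against 3084, 2572, 2774, 3386 and 2539 in the control libraries. Restricted library 2 was the highest of its group and still under the lowest control (limma log2 fold change -1.01, SE 0.13, BH-adjusted p = 0.000513). In the leucine table PYCR1 had 1241, 1561, 1292, 1319.5 and 1397 normalised counts in the restricted libraries, against 4192, 3069, 2524 and 2908 in the control libraries. In the valine table it had 1179, 1589, 1132, 1334 and 1235 normalised counts in the restricted libraries, against 4586, 3281, 2719.6 and 3138 in the control libraries. These comparisons share the 4 BCAA controls, of which library 1 was the highest, and the restricted libraries stayed below all of them: the level was 43.6% of control for leucine (limma log2 fold change -1.20, SE 0.14, BH-adjusted p = 0.00033) and 38.2% for valine (limma log2 fold change -1.39, SE 0.16, BH-adjusted p = 0.000171). Isoleucine restriction was set against the same controls and gave a log2 fold change of -0.16 (95% interval -0.45 to 0.12). Under histidine restriction it was -0.23, missing the call (limma BH-adjusted p = 0.0663), and control 5, the lowest control, decided this: without it the adjusted p was 0.00407. Under tryptophan restriction PYCR1 was 0.031 (interval -0.13 to 0.20) as deposited and 0.28 with equal totals (limma BH-adjusted p = 0.00615).

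The balance of the 2 proline enzymes within a library, which no scaling of whole libraries alters, moved in opposite directions across amino acids. The ratio of PYCR1 to ALDH18A1 normalised counts was 0.686 ± 0.0481 in restricted cells and 0.388 ± 0.0265 in control cells for tryptophan, with no overlap. It was 0.412 ± 0.0574 in restricted cells and 0.809 ± 0.0452 in control cells for methionine. For leucine it was 0.582 ± 0.0446 in restricted cells and 1.38 ± 0.301 in control cells (SD, n = 5 and 4). For histidine, where both members had lower means, it was 0.772 ± 0.0373 in restricted cells and 0.772 ± 0.0722 in control cells. These ratios compare libraries and not the amounts of the 2 mRNAs, since transcript length was not taken into account, and they carry no test.

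**Figure D3:**
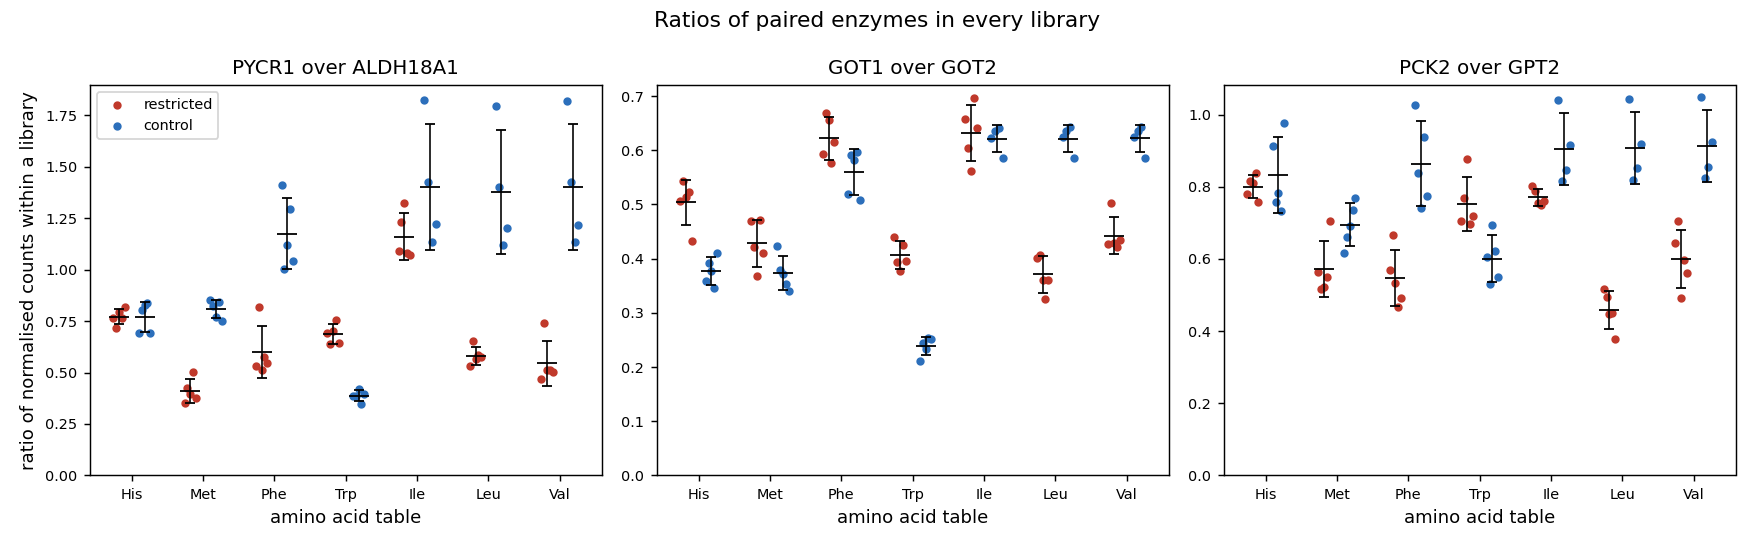
Ratio of normalised counts of PYCR1 over ALDH18A1, GOT1 over GOT2 and PCK2 over GPT2 within each library (linear axes from 0), with restricted libraries in red to the left of control libraries in blue and mean ± SD bars. The first ratio is higher than control under Trp and lower under Met, Phe, Leu and Val, and GOT1 over GOT2 is higher under His and Trp and lower under Leu and Val.

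GOT1 and GOT2 encode the cytosolic and mitochondrial aspartate transaminases, which exchange amino groups between glutamate and aspartate and carry the malate-aspartate shuttle (GOT1, ENSG00000120053.11, chromosome 10, 99396870 to 99431569, and GOT2, ENSG00000125166.12, chromosome 16, 58707131 to 58734357, both minus strand). The mitochondrial enzyme fell under tryptophan, methionine and histidine restriction and the cytosolic enzyme under leucine, valine and methionine restriction. In the tryptophan table GOT2 had 1576, 1726, 1895, 1627 and 1718 normalised counts in the restricted libraries, against 3109, 2979.6, 3057, 2734 and 2806 in the control libraries. The restricted libraries lay at 58.1% of control with no overlap (limma log2 fold change -0.78, SE 0.063, BH-adjusted p = 1.51e-07). For methionine GOT2 had 1662, 1807, 1774, 1785 and 1739.6 normalised counts in the restricted libraries, against 2236, 2658, 2541, 2315 and 2524 in the control libraries, also separated (limma log2 fold change -0.48, SE 0.065, BH-adjusted p = 2.53e-05). In the histidine table GOT2 had 2178, 1867, 2071, 2125 and 2219 normalised counts in the restricted libraries, against 2529, 2444, 2463, 2787 and 2480.5 in the control libraries. The fall was smaller, and the groups still did not overlap (limma log2 fold change -0.28, SE 0.066, BH-adjusted p = 0.00639). Under phenylalanine restriction the groups did not overlap either (restricted 1410.4 to 1758, control 1800.3 to 1920.5), but the comparison missed the call (limma log2 fold change -0.24, SE 0.089, BH-adjusted p = 0.12) and was called without restricted library 2 (adjusted p = 0.0386 in limma). For the branched-chain amino acids its log2 fold change lay between -0.059 and 0.19, with no call.

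GOT1 had 845, 975, 796, 726 and 809 normalised counts in the restricted libraries, against 1443, 1052, 1159.8 and 1237 in the control libraries in the leucine table. All restricted libraries were below all controls (limma log2 fold change -0.56, SE 0.12, BH-adjusted p = 0.0173), and the call was lost without restricted library 3 or 4 (adjusted p = 0.0525 and 0.0529 in limma). In the valine table GOT1 had 945, 1003, 824, 911 and 908 normalised counts in the restricted libraries, against 1557, 1109, 1233 and 1316 in the control libraries. The groups did not overlap (limma log2 fold change -0.50, SE 0.13, BH-adjusted p = 0.023), and the call was lost without restricted library 3, 4 or 5 or BCAA control 5, with adjusted p up to 0.0723 in limma. GOT1 in the methionine table had 780.0, 761, 654, 841 and 715 normalised counts in the restricted libraries, against 947, 1007, 943, 819 and 859 in the control libraries. These ranges overlapped through the highest restricted and the lowest control library (limma log2 fold change -0.29, SE 0.087, BH-adjusted p = 0.0129), and with equal totals the difference was -0.16 (adjusted p = 0.116). Under histidine restriction the log2 fold change was 0.14 (95% interval -0.011 to 0.28), which equal totals turned into a call (0.18, limma BH-adjusted p = 0.0485). For tryptophan it was -0.013 (interval -0.14 to 0.12) as deposited and 0.23 with equal totals (limma BH-adjusted p = 0.0055), while phenylalanine and isoleucine gave -0.082 and -0.037, with no call. Within libraries, the ratio of GOT1 to GOT2 was 0.407 ± 0.0258 in restricted cells and 0.239 ± 0.0171 in control cells for tryptophan. For leucine it ran the other way, 0.371 ± 0.0336 in restricted cells and 0.622 ± 0.0254 in control cells. Neither comparison of ratios had overlapping groups, and neither was tested.

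GPT2, the mitochondrial alanine transaminase, which makes alanine and 2-oxoglutarate from pyruvate and glutamate (ENSG00000166123.13, chromosome 16, 46884378 to 46931297, plus strand), rose under histidine and tryptophan restriction and fell under methionine and valine restriction. In the tryptophan table GPT2 had 1943, 1807, 1785, 1964 and 1864 normalised counts in the restricted libraries, against 941, 1073, 1034, 908 and 1077 in the control libraries. Restricted cells had 186% of the control level (limma log2 fold change 0.90, SE 0.066, BH-adjusted p = 5.89e-08). In the histidine table GPT2 had 2367, 2125, 2216, 2207 and 2186 normalised counts in the restricted libraries, against 1283, 1546, 1577, 1699.8 and 1223 in the control libraries. The restricted libraries were again above every control (limma log2 fold change 0.61, SE 0.089, BH-adjusted p = 0.00022). In the methionine table the direction was opposite, with 636, 744, 658, 744 and 655 normalised counts in the restricted libraries, against 1678, 1699.8, 1654, 1579.6 and 1371 in the control libraries. The level was 43.1% of control (limma log2 fold change -1.21, SE 0.081, BH-adjusted p = 3.59e-08). In the valine table GPT2 had 917, 942, 1029, 1074 and 1037 normalised counts in the restricted libraries, against 1676, 1428, 1464 and 1426 in the control libraries, without overlap (limma log2 fold change -0.58, SE 0.11, BH-adjusted p = 0.00551). Phenylalanine restriction gave groups that did not overlap (restricted 863 to 1045, control 1089 to 1238) but missed the call (limma log2 fold change -0.25, SE 0.088, BH-adjusted p = 0.0994); without restricted library 2 and control 1 the adjusted p was 0.0177. Isoleucine and leucine restriction gave 0.10 (95% interval -0.092 to 0.29) and 0.073 (interval -0.15 to 0.30).

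PCK2 encodes the mitochondrial phosphoenolpyruvate carboxykinase, which draws oxaloacetate out of the TCA cycle (ENSG00000100889.11, chromosome 14, 24094053 to 24110598, plus strand), and it had the widest span of the 8. In the tryptophan table PCK2 had 1369, 1390.0, 1563, 1366 and 1340.0 normalised counts in the restricted libraries, against 569.8, 570.0, 718, 565 and 593 in the control libraries. The restricted level was 233% of control, and library 3 was the highest in each group (limma log2 fold change 1.22, SE 0.079, BH-adjusted p = 1.7e-08). In the histidine table PCK2 had 1843, 1736, 1796, 1850.0 and 1658 normalised counts in the restricted libraries, against 1171, 1172, 1234, 1247 and 1193 in the control libraries. Both groups were narrow and apart (limma log2 fold change 0.56, SE 0.060, BH-adjusted p = 1.64e-05). For methionine PCK2 had 357, 384, 344, 409 and 462 normalised counts in the restricted libraries, against 1035, 1122, 1145, 1162 and 1053 in the control libraries. This was the largest fall among the 8 enzymes in any comparison as deposited, to 35.4% of control (limma log2 fold change -1.50, SE 0.091, BH-adjusted p = 1.33e-08). In the phenylalanine table it had 492, 665, 504, 488 and 498 normalised counts in the restricted libraries, against 1119, 942, 918, 1100.4 and 881 in the control libraries. Restricted library 2 stood above the other 4 and below all controls (limma log2 fold change -0.91, SE 0.12, BH-adjusted p = 0.000542). In the leucine table PCK2 had 655, 826, 640.4, 657 and 605 normalised counts in the restricted libraries, against 1622, 1111, 1172 and 1232 in the control libraries. In the valine table it had 591, 665, 505, 641 and 583 normalised counts in the restricted libraries, against 1758, 1176, 1251 and 1317 in the control libraries. BCAA control 1 was the highest library in both, and no restricted library reached the lowest control: the level was 53.0% of control for leucine (limma log2 fold change -0.92, SE 0.13, BH-adjusted p = 0.00193) and 43.8% for valine (limma log2 fold change -1.19, SE 0.14, BH-adjusted p = 0.00026). These calls held without restricted library 2 and BCAA control 1. Against the same controls, isoleucine-restricted cells had 1242, 1268, 1267, 1239 and 1068 normalised counts and the controls 1692, 1163, 1223 and 1278. These groups overlapped (log2 fold change -0.12, 95% interval -0.38 to 0.13). The ratio of PCK2 to GPT2 did not overlap between groups in 5 tables: it was 0.458 ± 0.0529 in restricted cells and 0.908 ± 0.0995 in control cells for leucine and lower than control also for phenylalanine, valine and isoleucine, while for tryptophan it was 0.753 ± 0.0744 in restricted cells and 0.601 ± 0.0645 in control cells. For histidine and methionine the groups overlapped, and no ratio was tested.

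Whether the responses differed between amino acids was tested for the 18 pairs that have separate controls, with p-values adjusted over all genes and all pairs together, and the 3 pairs among the branched-chain amino acids were not tested because they share controls. Of 144 results for the 8 members, 89 were called (61.8%), beside 26.2% of the results for all genes. Each tested pair differs in its control set as well as in its amino acid, and these cannot be told apart. Control means differed between the separately normalised sets. For ALDH18A1 the mean was 4522 in tryptophan controls and 2219 to 2549 in the others. The part of such control levels in the differences was not tested. GPT2 differed in 16 of 18 pairs, PCK2 in 15, ALDH18A1 and GOT2 in 11, GLUL and PYCR1 in 10, GLUD1 in 9 and GOT1 in 7. Methionine and tryptophan stood furthest apart for PCK2 (methionine minus tryptophan -2.72, SE 0.12, BH-adjusted p = 4.55e-13 in limma) and for GPT2 (-2.11, SE 0.10, BH-adjusted p = 1.82e-12 in limma), and all 8 members differed in that pair, as 48.9% of all genes did, although GOT1 lost its call there with TMM scaling (limma BH-adjusted p = 0.101). All 8 also differed between histidine and leucine, beside 19.4% of all genes, with ALDH18A1 losing its call under TMM scaling (limma BH-adjusted p = 0.0911). Relative to its own controls, ALDH18A1 responded more negatively to tryptophan than to each of the other 6 restrictions, with differences from tryptophan minus isoleucine (-0.88, SE 0.076, BH-adjusted p = 1.95e-08 in limma) to methionine minus tryptophan (0.46, SE 0.068, BH-adjusted p = 2.01e-05 in limma). GOT2 did likewise in all 6 pairs with tryptophan, the smallest being methionine minus tryptophan (0.30, SE 0.085, BH-adjusted p = 0.0116 in limma), which with equal totals was 0.18 (BH-adjusted p = 0.0921 in limma) and no longer called. For GLUL, histidine and methionine each differed from the other 5, and from each other by 0.14, with a 95% interval of -0.074 to 0.36. Phenylalanine and valine were the least separated pair, with 1 member called (GPT2, 0.34, SE 0.12, BH-adjusted p = 0.0478 in limma, and 0.0585 with TMM scaling) beside 5.35% of all genes. PYCR1 differed in none of the tested pairs among methionine, phenylalanine, leucine and valine, for which the largest difference was phenylalanine minus valine (0.38, 95% interval -0.059 to 0.81).

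The patterns across the 35 restricted libraries, each expressed as log2 normalised count minus the mean of its table's controls, give a description of which members and which other genes moved alike. The points share controls within a table and fall into 7 groups, so no test is attached. Among the members, PYCR1 and PCK2 (r = 0.92), GPT2 and PCK2 (r = 0.91) and ALDH18A1 and GOT2 (r = 0.88) were most alike, and ALDH18A1 and PCK2 least (r = -0.58). Over 10513 genes with a mean of at least 100 in all 7 tables, PCK2 was most like SHMT2 (r = 0.96), the mitochondrial serine hydroxymethyltransferase, followed by the amino acid transporter SLC43A1 (r = 0.95) and argininosuccinate synthase ASS1 (r = 0.94). GPT2 was most like the poly(A)-binding protein gene PABPC1 and ASS1 (both r = 0.98) and the serine synthesis gene PSAT1 (also r = 0.98). ALDH18A1 was most like the purine synthesis gene ATIC (r = 0.96), RCC1 (r = 0.95) and the mitochondrial chaperonin HSPD1 (r = 0.94). GOT2 was most like IFI16 (r = 0.95), RCC1 and DDX39A (both r = 0.94). GLUL was most like ZNF512 (r = 0.95) and the cholesterol synthesis gene MSMO1 (r = 0.94). PYCR1 was most like MAN2B1, PCK2 and the ribosomal protein gene RPL10 (r = 0.92, 0.92 and 0.91). GLUD1 was most like LTBP1 (r = 0.96), F2R and ASAP2 (both r = 0.95), and GOT1 was most like SERP1 (r = 0.88), EMC9 (r = 0.86) and MAGED1 (r = 0.84).

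Other genes of the same routes were followed in 6 lists, whose counts are to be read beside the share of all genes called, from 53.2% (methionine) and 51.3% (tryptophan) through 27.9% (histidine) to 12.5% (valine), 10.2% (phenylalanine) and 7.75% (leucine). Among genes with a mean of at least 100 these shares were higher, for example 64.6% for methionine, 62.7% for tryptophan and 39.3% for histidine. The lists, like the members, were chosen with earlier results of these data known. For the ATF4 pathway, 24 of 25 genes were tested in each table. Tryptophan restriction raised 17 and lowered 2 of them (median log2 fold change 0.66, all genes 0.027), and histidine restriction raised 15 and lowered 4 (0.45, all genes -0.0061). The ATF4 mRNA itself, named after its value was seen, was among those lowered by both. Its log2 fold change was -0.52 for tryptophan and -0.36 for histidine (limma BH-adjusted p = 1.23e-06 and 0.00162). Under methionine restriction it was higher (0.35, limma BH-adjusted p = 0.00123). TRIB3, a pseudokinase induced by ATF4, had 10826 ± 408 in restricted cells and 1768 ± 45.2 in control cells, BH-adjusted p = 1.87e-13 in limma, under tryptophan restriction. In the histidine table TRIB3 had 6782 ± 633 in restricted cells and 3269 ± 373 in control cells, BH-adjusted p = 2.03e-06 in limma, while DDIT4, an inhibitor of mTORC1 signalling, was lower (2137 ± 211 in restricted cells and 5392 ± 878 in control cells, BH-adjusted p = 1.35e-06 in limma). The cystine transporter gene SLC7A11 rose in that table too (677 ± 20.0 in restricted cells and 283 ± 42.0 in control cells, BH-adjusted p = 2.41e-06 in limma), as it did under tryptophan restriction, and it fell under methionine restriction (log2 fold change -0.67). Methionine restriction split the list, with 6 higher and 11 lower (median -0.23, all genes 0.019). There TRIB3 rose (15223 ± 1014 in restricted cells and 3285 ± 189 in control cells, BH-adjusted p = 1.27e-11 in limma) while PHGDH, the first enzyme of serine synthesis, fell (1748 ± 169.8 in restricted cells and 8567 ± 985 in control cells, BH-adjusted p = 1.86e-10 in limma), and so did SHMT2 (2266 ± 273 in restricted cells and 7147 ± 369 in control cells, BH-adjusted p = 1.47e-09 in limma). Under valine 1 was higher and 7 lower, under leucine 1 and 4, under phenylalanine 0 and 3, and under isoleucine none was called. SHMT2 was among those lowered by valine (log2 fold change -1.21), phenylalanine (-0.85) and leucine (-0.66), and it was higher under tryptophan (0.61) and histidine (0.27). Without restricted library 2 and control library 1 the counts were 2 higher and 9 lower for valine, 1 and 8 for leucine, and 2 and 7 for phenylalanine. The shares of all genes called were then 25%, 14.4% and 26.5%. Control levels of TRIB3 differed between the separately normalised sets. Its control mean was 15178.5 for phenylalanine and 14840 to 15831 for BCAA, against 1768 for tryptophan, 3269 for histidine and 3285 for methionine. The part of these control levels in the list counts was not tested.

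The 18 genes of 2-oxoglutarate metabolism and the TCA cycle were mostly lower: 14 of 18 fell and 1 rose under tryptophan (median -0.38), 11 fell and 2 rose under methionine (-0.36) and 10 fell and 1 rose under histidine (-0.34). With equal totals the counts were 7 lower and 2 higher for tryptophan, 10 and 5 for methionine, and 10 and 3 for histidine. Of all genes, 58% (16.9% lower, 41.2% higher), 55.2% (20.6% and 34.6%) and 29.8% (10.8% and 19%) were then called. The succinate dehydrogenase subunit gene SDHA had 1617 ± 51.2 in restricted cells and 3279.6 ± 83.7 in control cells, BH-adjusted p = 1.18e-09 in limma, under tryptophan restriction, where the 1 gene that rose was the cytosolic isocitrate dehydrogenase IDH1 (named after its value was seen, 663 ± 51.2 in restricted cells and 337 ± 32.1 in control cells, BH-adjusted p = 4.3e-07 in limma). Under methionine restriction the mitochondrial isocitrate dehydrogenase IDH2 had 1928 ± 304 in restricted cells and 9096 ± 835 in control cells, BH-adjusted p = 1.25e-09 in limma. SDHA was called lower under methionine, histidine and phenylalanine too, IDH2 under histidine, phenylalanine and valine, and IDH1 under all 4 of these (methionine, histidine, phenylalanine and valine). Citrate synthase, encoded by CS, was lower under methionine (log2 fold change -0.91), valine (-0.90), histidine (-0.50), tryptophan (-0.42) and phenylalanine (-0.34). For phenylalanine 6 genes fell and 1 rose, for valine 5 fell and 2 rose, for leucine IDH1 alone fell (-0.79), and for isoleucine none was called.

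Among other users of glutamine, tryptophan restriction lowered 7 and raised 2 of 15 tested genes (median -0.49), beside 27.7% and 23.6% of all genes. With equal totals these shares of all genes were 16.9% and 41.2%, and the counts of this list under that scaling are not reported here. GMPS, which takes glutamine nitrogen into guanine nucleotides, had 3440.4 ± 154 in restricted cells and 6834 ± 272 in control cells, BH-adjusted p = 1.91e-09 in limma, in that table. It was also lower under methionine, phenylalanine, histidine and valine restriction, with log2 fold changes of -0.86, -0.58, -0.44 and -1.25. CTPS1 (CTP synthase) and CAD, which starts pyrimidine synthesis, fell under tryptophan restriction as well (-0.99 and -0.72) and under methionine restriction (-0.35 and -0.68), while CAD was higher under leucine (0.33). The counts of higher and lower genes in this list were 3 and 4 of 13 for methionine, 1 and 3 of 15 for histidine, 0 and 2 of 14 for phenylalanine, 2 and 1 of 14 for leucine and 1 and 3 of 14 for valine. Several totals in this and the other lists lay near the shares of all genes called. Among them were the methionine and histidine totals here, 7 of 13 and 4 of 15, beside 53.2% and 27.9%.

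In the list of aspartate use and the malate-aspartate shuttle, ASS1, which joins aspartate to citrulline, changed in 6 of the 7 tables. It had 956 ± 109 in restricted cells and 9534 ± 552 in control cells, BH-adjusted p = 2.06e-12 in limma, under methionine restriction, and 9293 ± 1171 in restricted cells and 2935 ± 236 in control cells, BH-adjusted p = 1.84e-09 in limma, under tryptophan restriction. ASS1 also rose under histidine restriction (log2 fold change 0.36) and fell under phenylalanine (-1.54), valine (-1.75) and leucine (-0.65) restriction. ASNS, the asparagine synthetase, fell under methionine (-2.15), phenylalanine (-0.94) and valine (-0.93) and rose under tryptophan (1.23). The list had 1 higher and 8 lower of 14 for methionine, 3 and 5 of 14 for tryptophan, 2 and 1 of 14 for histidine, 0 and 2 of 15 for phenylalanine, and 0 and 2 of 14 each for leucine and valine. With equal totals the tryptophan counts were 5 higher and 1 lower, and the methionine counts 3 and 6, beside 58% and 55.2% of all genes called.

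Of the 7 tested proline and ornithine genes, tryptophan restriction lowered 5 and raised 1, methionine lowered 3 and raised 1, phenylalanine lowered 2, histidine and leucine lowered 1 each, and valine lowered 1 and raised 1. With equal totals tryptophan lowered 2 and raised 2, beside 58% of all genes called (16.9% lower, 41.2% higher). ARG2, the mitochondrial arginase, fell under phenylalanine (332 ± 38.8 in restricted cells and 1185 ± 171 in control cells, BH-adjusted p = 4.58e-06 in limma), and also under valine, leucine, methionine and tryptophan (log2 fold changes -1.48, -0.80, -0.68 and -0.58). Ornithine aminotransferase, encoded by OAT, fell under phenylalanine (-0.56), histidine (-0.55) and tryptophan (-0.44). Of the 7 tested alanine, pyruvate and phosphoenolpyruvate genes, methionine restriction lowered 4, histidine 3, tryptophan 3 with 2 higher, phenylalanine and valine 2 each and leucine 1. With equal totals tryptophan lowered 1 and raised 3, beside the same 58% of all genes. PDK1, the kinase that holds pyruvate dehydrogenase inactive, had 541 ± 56.9 in restricted cells and 2514 ± 189 in control cells, BH-adjusted p = 2.07e-10 in limma, under methionine restriction. It was lower under phenylalanine, valine, histidine and tryptophan restriction too (log2 fold changes -1.26, -1.17, -0.96 and -0.42), and pyruvate carboxylase, PC, was lower under phenylalanine (-1.02), valine (-0.79), leucine (-0.65) and histidine (-0.48). Isoleucine restriction gave no call in any of the 6 lists. Transcripts of GPT, the cytosolic alanine transaminase, had 61.0 ± 14.5 in restricted cells and 24.9 ± 4.97 in control cells, BH-adjusted p = 0.000404 in limma, under tryptophan restriction, the same direction as GPT2.

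**Figure D4:**
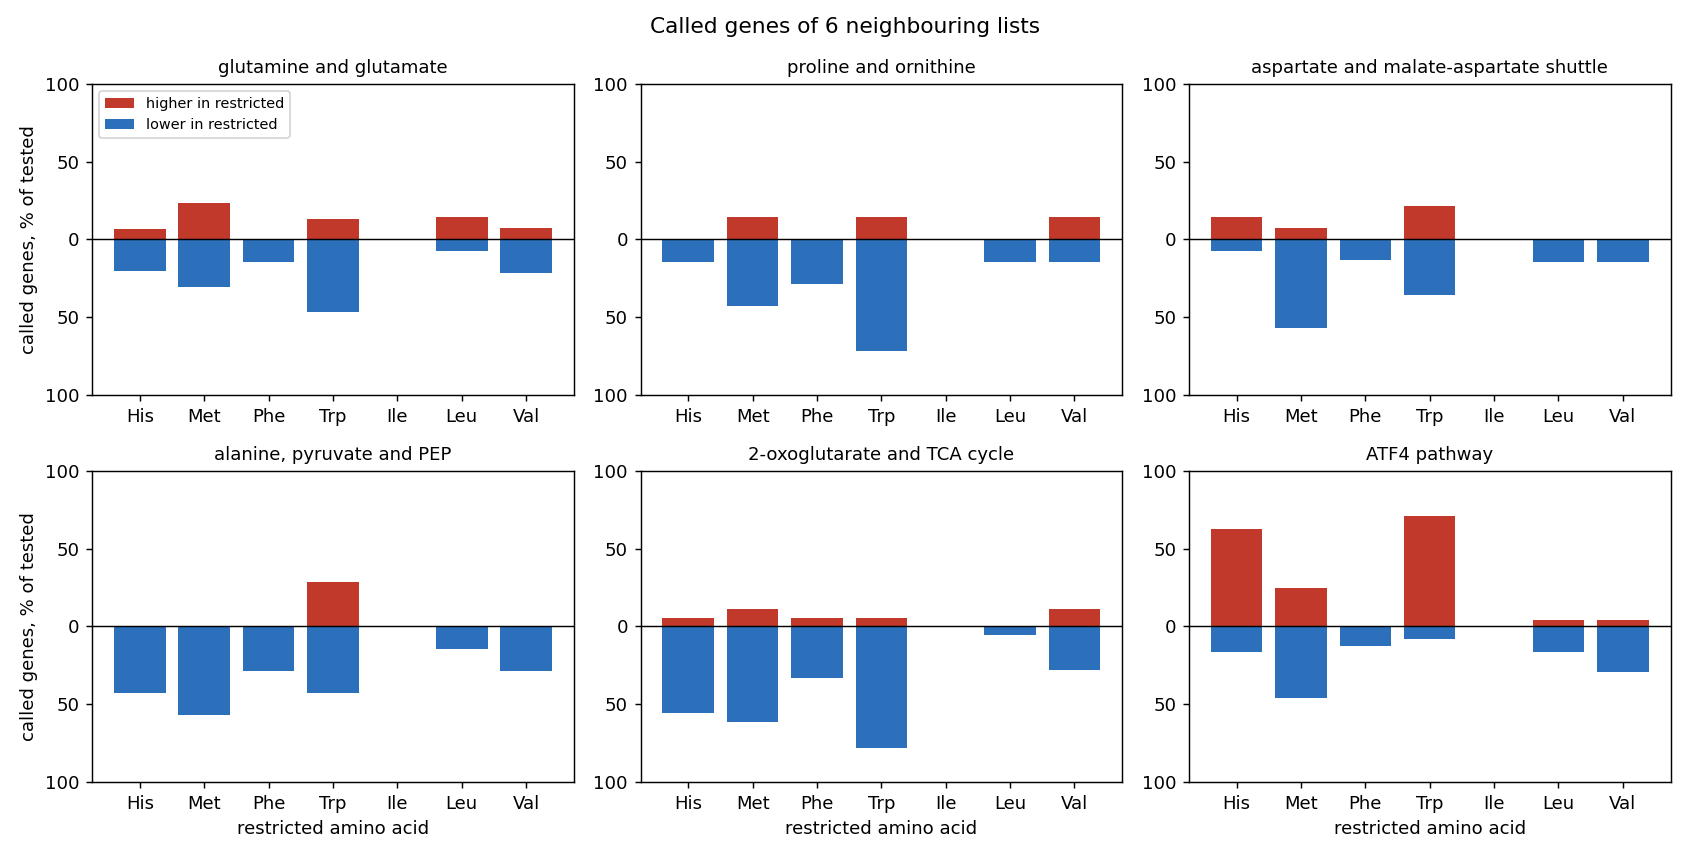
Percent of tested genes of each of the 6 lists that were called higher (red, upward) or lower (blue, downward) in restricted cells, by restricted amino acid. The ATF4 pathway is mostly higher under His and Trp, the TCA cycle list is mostly lower under His, Met and Trp, and no bar appears under Ile.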

How the data were processed

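The authors deposited normalised counts per gene, with each of the 7 amino acids in a table of its own, a signal that is never negative and is not whole numbers. Per the submitters' processing notes, the build was GRCh38 and the tools were DESeq2 1.44.0, kallisto 0.50.1 and FastQC 0.11.9. Per the labels' protocols, 1 µg of total RNA entered strand-specific libraries. The sources used here give neither annotation release nor strand option. Reads per library are unknown, whole reads could not be recovered, and no count model was fitted.

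The values plus a pseudocount of 1 were put on a log2 scale, genes whose mean reached 10 were kept, and two-sided limma 3.58.1 fits (lmFit, then eBayes with trend) were run in R 4.3.3, where p-values were adjusted by Benjamini-Hochberg over the whole table. Differences between responses were fitted as interactions and adjusted over all genes and 18 pairs. The 8 members and the 6 gene lists were chosen with earlier results of these data known. Named were all members, at most 3 called genes per list and comparison by adjusted p, all called genes of a list with up to 5 calls, and up to 3 genes of like pattern per member; a few genes that this rule names are not reported here. Simulated data with known changes were used to check both kinds of fit. Alternatives were pseudocounts of 5 and 0.25, a minimum mean of 100 or none, equal totals or TMM factors (computed from the published formula), a block for the replicate number, and omission of single libraries. The joint omission of restricted library 2 and control library 1, for phenylalanine, isoleucine, leucine and valine, was added after seeing the data. Every column mapped to a library, and no libraries were identical.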

Additional observations from a re-analysis of the deposited data

Results flagged for a closer look

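In 12 of 96 groups of 4 or 5 libraries, 1 library lay far from the others for a member, while chance gives about 1 in 20 groups. PCK2 accounted for 5 of these. It had 665 normalised counts in phenylalanine-restricted library 2 (the others 488 to 504), 826 in leucine-restricted library 2 (605 to 657) and 1563 in tryptophan-restricted library 3 (1340.0 to 1390.0). It had 718 in tryptophan control 3 (565 to 593) and, on the low side, 1068 in isoleucine-restricted library 5 (1239 to 1268). PYCR1 was high in the same phenylalanine-restricted library 2, with 1904 (1211 to 1376), and low in methionine control 5, with 1614 (1825 to 1854). GLUD1 was high in methionine-restricted library 5, with 2884 (2615 to 2678), and in tryptophan-restricted library 5, with 4253 (3949 to 4014), and low in valine-restricted library 2, with 2062 (2957 to 3163). GOT2 was high in histidine control 4, with 2787 (2444 to 2529), and GPT2 in BCAA control 1, with 1676 in the valine table (1426 to 1464).

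The response differed between amino acids by the interaction test for every member: in 9 of 18 pairs for GLUD1, 10 for GLUL, 10 for PYCR1, 11 for ALDH18A1, 7 for GOT1, 11 for GOT2, 16 for GPT2 and 15 for PCK2. Over all genes, 26.2% of the gene and pair results were called, and 48.9% for methionine minus tryptophan, so some differing pairs are common for any gene. The control sets also differ in these pairs and cannot be told apart from the amino acid.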

How the results depend on the processing

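The number of members called stayed within 1.5 times its value for each amino acid under all settings run, with 2 exceptions: tryptophan gave 8 (6 higher, 2 lower) with equal totals, and phenylalanine gave 4 without restricted library 2 and control 1. Uncalled members reversed sign in some settings. With equal totals the log2 fold changes were 0.022 (GLUL), 0.092 (ALDH18A1) and 0.037 (GOT1) for phenylalanine, 0.18 (GLUD1), 0.16 (GLUL) and 0.23 (GOT1) for tryptophan, 0.0058 (GOT1) for isoleucine, and 0.051 (GLUL), 0.080 (ALDH18A1) and 0.11 (GOT2) for valine. With TMM factors GOT2 was 0.0080 for valine. Without restricted library 2 and control 1 together, GOT1 and GOT2 were 0.044 and 0.0038 for isoleucine, and GLUL, ALDH18A1 and GOT2 were 0.037, 0.017 and 0.096 for valine. With libraries left out in turn, the ranges that crossed 0 were, for isoleucine, -0.018 to 0.046 (GLUL), -0.10 to 0.046 (GOT1) and -0.14 to 0.022 (GOT2), for valine -0.11 to 0.022 (GLUL), -0.068 to 0.0029 (ALDH18A1) and -0.089 to 0.083 (GOT2), and for tryptophan -0.021 to 0.070 (PYCR1) and -0.035 to 0.0023 (GOT1). The cause was not tested. The counts of pairs in which responses differed stayed within 1.5 times under all settings run.

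The deviations of same-numbered libraries correlated weakly (r between -0.19 and 0.19). With 4 or 5 such pairs per comparison, these values cannot decide whether the numbers pair the libraries. With the replicate number as a block the members called again numbered 8 for methionine, 5 for histidine, 4 each for tryptophan and valine, 3 for leucine, 2 for phenylalanine and 0 for isoleucine. All called genes numbered 803 instead of 1736 for phenylalanine and 775 instead of 1277 for leucine, but 3059 instead of 2096 for valine. In the branched-chain comparisons restricted library 2 has no control of its number, so it adds nothing to the blocked difference. Under the block the uncalled GLUL was -0.0039 for isoleucine, and GLUL, ALDH18A1 and GOT2 were 0.022, 0.0029 and 0.0093 for valine. Reads per library are unknown, so counting error could not be separated from the spread between 4 or 5 libraries.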

Other observations

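The control groups themselves sat at different levels for several enzymes, in tables that were normalised separately, so the values are set side by side without a test. PCK2 averaged 1406 ± 90.0 normalised counts in tryptophan-restricted cells and 603 ± 65.4 in their controls, while phenylalanine controls had 992 ± 110 and methionine controls 1103 ± 56.4. ALDH18A1 averaged 2617 ± 83.5 in tryptophan-restricted cells and 4522 ± 92.0 in their controls, while its mean in the other controls lay between 2219 (methionine) and 2549 (histidine). Among control groups, mean GOT2 was highest (2937 ± 161) and mean GOT1 lowest (699 ± 27.2) in the tryptophan table. GLUL averaged 6045 ± 259 in histidine controls and 6063 ± 580.4 in methionine controls, against 4075 ± 228 to 4799 ± 339 in the others. PYCR1 averaged 2871 ± 360.1 in phenylalanine controls and 3173 to 3431 in the BCAA controls, against 1757 to 1968 in the other 3 control groups.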
